A study of Mus musculus with 12 samples.

Results

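Dusp4, Dusp5, Dusp6, Spry1, Spry2, Spry4, Spred1, Spred2, Spred3 and Phlda1 are genes of the feedback arm of the ERK pathway, and their RNA was followed here in 12 libraries of C18-4 cells, an immortalized mouse line used as a model of spermatogonial stem cells. These 10 genes were taken by symbol from a table of 17576 genes, and each of the 10 had a row. They were chosen from earlier results of the same data, namely the lower values of Dusp4 and Dusp6 after knockdown of the long non-coding RNA lncRNA5251 and the lower values of ERK-responsive transcripts in 2 of the 4 groups than in the group C18_3NC. The differences of C18_5251KD and of C18_5NC from C18_3NC, and from each other, are therefore given as descriptions without a p-value. The comparison of C18_5251OV with C18_5NC did not lead to the choice, but its baseline is the same 3 libraries of C18_5NC in which such transcripts were known to be low, so that genes chosen in this way are drawn towards higher values in C18_5251OV. It is described without a p-value for these genes as well.

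ERK is the last kinase of a relay in which growth factor receptors switch on RAS, RAS recruits RAF, RAF activates MEK and MEK phosphorylates ERK. Active ERK turns on transcription factors of the ETS and AP-1 families, and part of what they switch on damps the relay again. DUSP proteins remove phosphate from ERK itself, Sprouty and Spred proteins act further up between the receptor and RAF, and Phlda1 is widely read as a transcript that follows ERK activity. In the testis, GDNF and FGF signal through this pathway in spermatogonial stem cells.

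Each group had 3 libraries. In C18_5251KD the cells had been given the lentivirus vector LV3 with a mix of 3 shRNAs against lncRNA5251, and in its control C18_3NC the same vector with a control shRNA. In C18_5251OV they had been given the vector LV5 with the full-length lncRNA5251, and in its control C18_5NC empty LV5. The text of the study names lncRNA5251, the number that the sample labels carry, whereas a heading of the supplementary methods on these cells names another lncRNA, and the main and the supplementary methods differ in how many shRNAs were mixed. The number given here is that of the main text and of the shRNA list. All groups were stably transfected C18-4 cultures in medium with serum and had no other treatment. The sources do not say whether the libraries of a group came from separate cultures, so a p-value measures only the spread between these libraries. Differences between C18_5NC and C18_3NC go together with the vector, the control insert and any difference between the cultures, and these cannot be told apart.

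Values are RPKM, reads scaled by gene length and by the mapped reads of the library, so levels of different genes can be compared per length. A fold change is a difference on the scale of log2(RPKM + 1), on which changes of low genes come out too small. The numbers of reads are unknown. Relative depths of the libraries, from low values taken as steps of 1 read in 51 genes, lay between 0.945 and 1.03. Only genes whose non-zero values lay close together were kept for this, so it could not have shown a large difference in depth. Libraries of 1 group correlated with each other at a Spearman rho of 0.987 to 0.99. No row is named for lncRNA5251, so its own level was not analysed here, and neither its knockdown nor its overexpression was checked. Of 16 spermatogonial and germ cell marker genes in the table, Uchl1 alone reached 1 RPKM in every library and 14 stayed below 1 RPKM in every library. Ret, the receptor of GDNF signalling, was at 0 throughout, as were Nanos2 and Kit. Of 8 Sertoli cell markers 4 were at or above 1 RPKM in every library (Gata4, Wt1, Clu and Kitl), of 9 mesenchymal markers 6 were (among them Col1a1 and Vim), of 4 Leydig cell markers 0 were, and of 6 leukocyte markers 1 was (Cd68). The label of the line as spermatogonial thus rests on few of its markers in these libraries, and the cells are called C18-4 throughout.

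The knockdown sequences are shown because each comparison with C18_5251KD rests on them. The letters are those of the study's shRNA list, written 5′ to 3′.
shRNA 1: gctgggacttaatgtccttct
shRNA 2: gcatgggcaattcaaacaaat
shRNA 3: gcttattatgcatcgtaaacc
Each of the 3, searched for on both strands, had an exact match in transcripts of a single gene, Purb, among 141767 annotated mouse transcripts. None matched a transcript of the 10 genes. Purb, which encodes a protein that binds purine-rich DNA, measured 32.92, 34.11 and 33.84 RPKM in C18_3NC and 8.93, 8.79 and 10.25 in C18_5251KD (limma, log2 fold change -1.75 with a standard error of 0.10, adjusted p = 1.69e-09). In C18_5NC it measured 29.18, 32.09 and 30.71 RPKM, and in C18_5251OV 23.94, 24.2 and 33.25 (log2 fold change -0.19, adjusted p = 0.176). The fall of Purb moved with C18_5251KD in the same libraries as the values below, and its part in them was not tested.

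The bases before the start are shown for 3 of the genes, because these genes differed in how their levels were ordered over the groups. They are from RefSeq on GRCm38.p6, on the plus strand, with the bases of a CArG box, the site of serum response factor, in capitals. They begin 250 bases before the RefSeq start. For Dusp6 and Spry1 that start is also the one in GENCODE, while for Dusp5 the GENCODE start lies 36 bases further up, and the 214 bases before it are printed.
Dusp5, chr19:53528895-53529108: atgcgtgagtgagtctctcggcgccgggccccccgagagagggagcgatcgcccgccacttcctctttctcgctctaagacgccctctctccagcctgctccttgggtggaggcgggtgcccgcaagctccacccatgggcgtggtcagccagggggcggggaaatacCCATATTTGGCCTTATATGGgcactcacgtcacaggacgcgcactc
Dusp6, chr10:99262981-99263230: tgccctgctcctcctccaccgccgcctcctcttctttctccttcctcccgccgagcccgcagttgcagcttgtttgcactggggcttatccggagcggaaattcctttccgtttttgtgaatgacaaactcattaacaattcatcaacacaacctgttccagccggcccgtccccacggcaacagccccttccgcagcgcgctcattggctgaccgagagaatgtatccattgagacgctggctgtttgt
Spry1, chr3:37639697-37639946: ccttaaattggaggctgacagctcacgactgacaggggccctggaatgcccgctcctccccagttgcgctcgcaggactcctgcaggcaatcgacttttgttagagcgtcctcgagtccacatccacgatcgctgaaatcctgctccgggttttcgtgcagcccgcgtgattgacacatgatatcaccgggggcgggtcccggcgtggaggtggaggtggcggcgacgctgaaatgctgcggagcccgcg
RefSeq windows of 300 bases, 250 before the start and 50 from it on, were searched for 7 of the 10 genes on both strands. The ETS motif CCGGAAG, found in 8.86% of all 32851 promoter windows, the AP-1 motif TGANTCA, found in 7.81%, and the cyclic AMP response element TGACGTCA, found in 1.79%, had no match in any of the 7. CArG boxes, found in 1.63% of windows, had 2 matches, both in Dusp5. These adjoin each other, CCATATTTGG from 82 and CCTTATATGG from 72 bases before the RefSeq start, or 46 and 36 bases before the GENCODE start. The 7 windows held between 55.0% and 72.3% G and C and between 8 and 40 CpG, against medians of 52.7% and 7 over all windows.

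The 3 DUSP genes stand for the last step of the loop. Dusp4 (chr8:34807297-34819894 on GRCm38, plus strand, as are all positions below unless said otherwise) encodes a nuclear phosphatase of ERK. It measured 23.12, 23.30 and 25.43 RPKM in C18_3NC, 7.19, 7.04 and 6.87 in C18_5251KD, 11.81, 14.51 and 12.73 in C18_5NC and 15.34, 16.38 and 19.53 in C18_5251OV. No library of one group reached into the range of another, and the order ran from C18_3NC over C18_5251OV and C18_5NC down to C18_5251KD. The mean of C18_5251KD, 7.03 ± 0.160 (SD, n = 3), was 29.4% of that of C18_3NC, 23.95 ± 1.28.

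Dusp6 (chr10:99263231-99267489) encodes the cytoplasmic phosphatase that is most selective for ERK and is a standard readout of the pathway. Its values were 17.33, 17.57 and 16.84 RPKM in C18_3NC, 5.71, 5.31 and 6.50 in C18_5251KD, 8.81, 8.79 and 8.57 in C18_5NC and 10.37, 10.13 and 11.14 in C18_5251OV. Dusp6 had the same order of groups as Dusp4, again with no overlap between neighbours. Its mean was 33.9% of the C18_3NC level in C18_5251KD and 50.6% in C18_5NC.

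Dusp5 (chr19:53529109-53542431), a nuclear phosphatase that binds ERK, was ordered otherwise. It measured 8.55, 8.51 and 8.62 RPKM in C18_3NC, 4.83, 3.80 and 3.11 in C18_5251KD, 8.50, 7.69 and 8.70 in C18_5NC and 9.44, 8.57 and 10.21 in C18_5251OV. Only C18_5251KD stood apart, at 45.7% of the C18_3NC mean, while the ranges of C18_5251OV and C18_3NC, and those of C18_3NC and C18_5NC, overlapped.

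Phlda1 (chr10:111506286-111508645), which encodes a small protein with a pleckstrin homology-like domain, had the highest level of the 10 genes in C18_3NC. It was at 29.44, 29.37 and 30.91 RPKM there, at 11.49, 12.28 and 11.63 in C18_5251KD, at 11.62, 11.70 and 12.16 in C18_5NC and at 16.90, 15.74 and 14.38 in C18_5251OV. The low groups C18_5251KD and C18_5NC overlapped, each with a mean of 11.8 RPKM (SD 0.422 and 0.291, n = 3), and C18_5251OV lay between them and C18_3NC.

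The Sprouty genes encode proteins that are docked at the membrane after growth factor stimulation and block the path to RAF. Those among the 10 did not share 1 pattern. Spry3, a Sprouty gene outside the 10 and named after its values were seen, had a mean of 2.49 RPKM in C18_3NC. Its means were 1.31 in C18_5251KD, 1.14 in C18_5NC and 1.25 in C18_5251OV. Spry4 (chr18:38586247-38601415, minus strand) was the lowest of the 10 genes outside C18_3NC, with values of 2.66, 2.41 and 2.60 RPKM in C18_3NC, 0.54, 0.68 and 0.56 in C18_5251KD, 0.81, 0.87 and 0.94 in C18_5NC and 0.89, 0.93 and 1.18 in C18_5251OV. Its mean in C18_5251KD was 23.2% of the C18_3NC mean and in C18_5NC 34.2%, with C18_5251OV and C18_5NC overlapping. Spry4 reached 1 RPKM in 4 of the 12 libraries, 3 of them C18_3NC, and so entered the test through the group where it is high. The other 9 genes were at or above 1 RPKM in every library.

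Spry1 (chr3:37639947-37644598) went the opposite way. It was lowest in C18_3NC, at 2.28, 2.18 and 2.21 RPKM, and measured 3.62, 3.84 and 4.53 in C18_5251KD, 4.03, 5.56 and 4.52 in C18_5NC and 6.58, 4.70 and 5.66 in C18_5251OV. All 9 libraries of the other groups lay above the 3 of C18_3NC, while C18_5251OV overlapped with C18_5NC and C18_5NC with C18_5251KD. Summed mesenchymal markers measured 847 to 889 RPKM in C18_3NC, 961 to 1061 in C18_5251KD, 1166 to 1205 in C18_5NC and 1225 to 1306 in C18_5251OV. Vim and Col1a1 made up most of this sum, and other markers of the list ran differently. Mean levels of Col3a1 (118 RPKM), Dcn (112) and Acta2 (21.2) were highest in C18_5NC, at 104, 108 and 13.6 in C18_5251OV, and that of Fn1 was highest in C18_3NC (8.28). Summed Sertoli cell markers, most of them Wt1, measured from 59.9 to 60.8 RPKM in C18_3NC over 61.5 to 64.1 and 66.4 to 68.6 up to 69.0 to 72.2 in C18_5251OV. These markers did not move together. From C18_3NC to C18_5251KD the mean of Wt1 went from 50.3 to 50.4 RPKM, that of Gata4 from 5.15 to 4.54 and that of Clu from 2.80 to 5.86. Kitl had means of 1.72 in C18_5NC and 1.23 in C18_5251OV. No marker of either list that the table holds was at 0 throughout, and their part in the values of Spry1 was not tested. In bulk RNA, fewer cells of a type and less RNA per cell cannot be told apart.

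Spry2 (chr14:105891947-105896819, minus strand) varied least among the Sprouty genes. Its values were 3.21, 3.17 and 3.98 RPKM in C18_3NC, 2.57 ± 0.333 in C18_5251KD (SD, n = 3), 3.02, 2.59 and 3.03 in C18_5NC and 3.67, 3.55 and 3.53 in C18_5251OV. The 2 higher groups, C18_5251OV and C18_3NC, overlapped with each other, as did the 2 lower groups, C18_5NC and C18_5251KD.

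Spred proteins are membrane-bound relatives of Sprouty, and Spred1 is known to bring neurofibromin, which switches RAS off, to the membrane. Spred2 (chr11:19924375-20024026) measured 24.26, 23.54 and 23.74 RPKM in C18_3NC, 14.13, 13.10 and 12.44 in C18_5251KD, 16.90, 17.39 and 16.67 in C18_5NC and 15.27, 15.66 and 17.41 in C18_5251OV. It was thus highest in C18_3NC and lowest in C18_5251KD, where its mean was 55.5% of that of C18_3NC, with C18_5NC and C18_5251OV overlapping between them. Spred1 (chr2:117121374-117182279) lay between 13.47 RPKM in a library of C18_5251OV and 19.65 in a library of C18_5251KD, and each group overlapped with its neighbour in the order. Spred3 (chr7:29158829-29170411, minus strand) was at 5.01, 5.00 and 5.25 RPKM in C18_3NC, at 3.96, 4.27 and 4.41 in C18_5251KD, at 3.03, 2.87 and 3.33 in C18_5NC and at 3.20, 3.00 and 3.11 in C18_5251OV. Unlike the other genes that were highest in C18_3NC, Spred3 was higher in C18_5251KD than in C18_5NC and C18_5251OV, which overlapped.

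**Figure D1:**
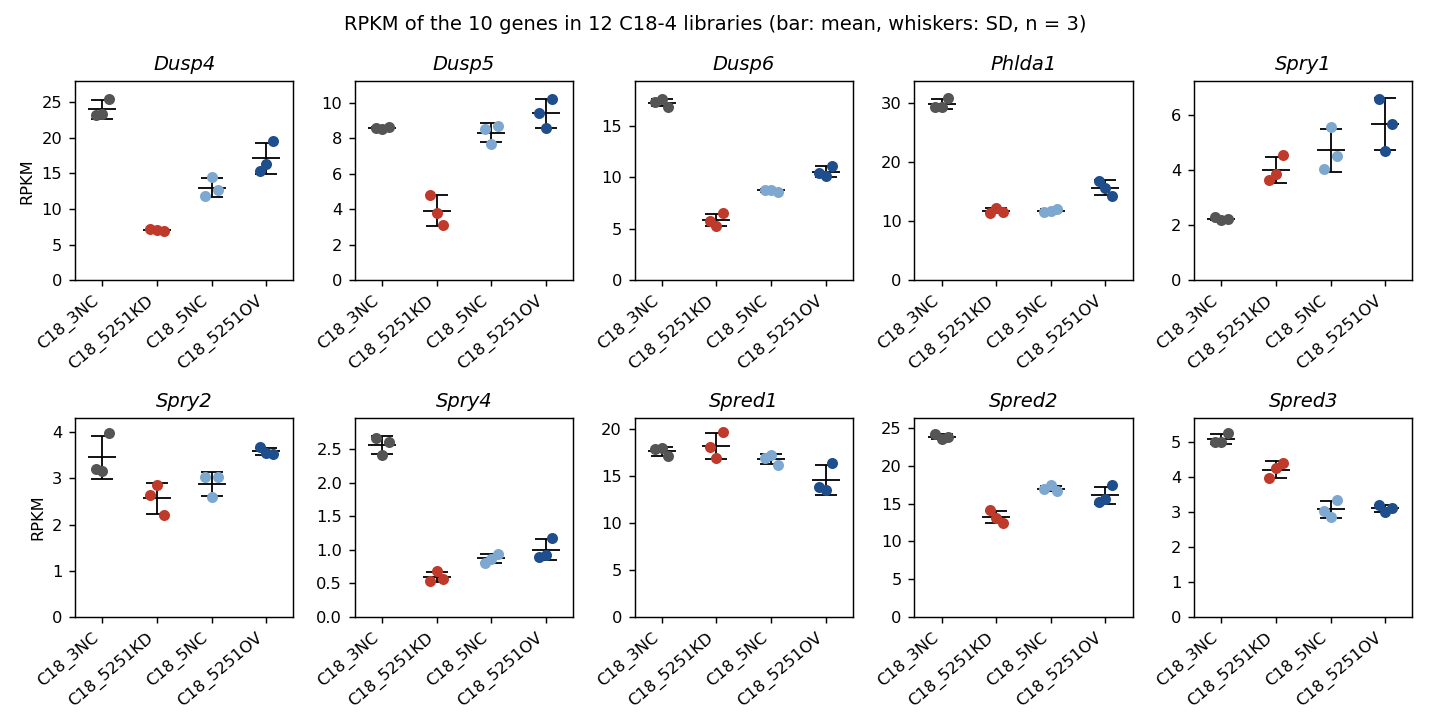
RPKM of the 10 genes (y axis, linear and from 0, a scale for each gene) in C18_3NC, C18_5251KD, C18_5NC and C18_5251OV (x axis), with a point for each library, a bar at the mean and whiskers of 1 SD (n = 3). Dusp4, Dusp6, Phlda1 and Spry4 are highest in C18_3NC, Spry1 is lowest in C18_3NC, and Dusp5 is low only in C18_5251KD.

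Over the 10 genes, C18_3NC had the highest mean in 6, C18_5251OV in 3 and C18_5251KD in 1. The lowest mean was in C18_5251KD for 7 genes and in each other group for 1. Across the 12 libraries, Dusp4 and Dusp6 had a Pearson correlation of log2(RPKM + 1) of 0.96, Spry4 and Phlda1 of 0.96 and Dusp6 and Spry4 of 0.94, while Spry1 was at -0.37 against Dusp4, -0.75 against Spry4 and -0.86 against Spred3. These coefficients describe 12 points that fall into 4 groups and share each library's scaling, and carry no p-value.

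The comparison of C18_5251KD with C18_3NC asks how the loop responded to the shRNAs, and is a description here because it led to the choice of genes. Against C18_3NC, the study's thresholds of an adjusted p of at most 0.001 and a log2 fold change of at least 1 were passed downwards by 4 of the 10 genes and upwards by 0. Of all 11435 genes tested, 1.08% passed downwards and 0.498% upwards, and since the choice used this comparison nothing is read from the count. It includes Spry4 with a log2 fold change of -1.16 (standard error 0.08), which was tested only because of its level in C18_3NC and so had to differ. The other 3 were Dusp4 with -1.63 (0.08), Dusp6 with -1.42 (0.07) and Phlda1 with -1.27 (0.06). With a pseudocount of 0.1 in place of 1, the value of Spry4 was -1.94. Dusp5 was just outside the fold threshold at -0.98 (0.10). It was inside with a pseudocount of 0.1 (-1.13), after quantile normalization (-1.04) and without C18_5251KD replicate 1 (-1.11). It was followed by Spred2 at -0.81 (0.06). The remaining values were -0.32 (0.09) for Spry2, -0.22 (0.07) for Spred3, 0.04 (0.07) for Spred1 and 0.63 (0.11) for Spry1. In 8 genes all libraries of C18_5251KD lay below those of C18_3NC and in 1, Spry1, above, whereas 62.8% of all genes tested were separated in one direction or the other. The median of the 10 log2 fold changes was -0.89 and that of all genes 0.04. In the same libraries the summed germ cell markers were lower in C18_5251KD, at 62.1 to 70.6 against 75.4 to 83.9 RPKM, nearly all of it Uchl1, and so were the summed leukocyte markers, at 2.59 to 3.15 against 4.25 to 5.78, with 5 of 6 below 1 RPKM in every library. The mesenchymal and Sertoli sums were higher, though not each of their markers, as given beside Spry1. In the Sertoli sum Clu was higher, Wt1 nearly equal and Gata4 lower. The part of these markers in the values of the 10 genes was not tested.

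The comparison of the control groups C18_5NC and C18_3NC asks how far the genes differed between cells that carried neither the shRNAs nor the added transcript. It shares the C18_3NC libraries with the comparison above, and was also among the results that led to the choice. Phlda1 alone passed both thresholds, with a log2 fold change of -1.27 (standard error 0.06), and 0 passed upwards, against 1.05% of all genes tested downwards and 1.56% upwards. Spry4 followed with -0.92 (0.08), Dusp6 with -0.91 (0.07) and Dusp4 with -0.84 (0.08). Spred3 was at -0.58 (0.07), Spred2 at -0.47 (0.06) and Spry2 at -0.20 (0.09), while Spred1 (-0.07) and Dusp5 (-0.04) differed by less than their standard errors of 0.07 and 0.10. Spry1 was higher in C18_5NC by 0.81 (0.11). With a pseudocount of 0.1, 3 genes passed both thresholds in place of 1, namely Phlda1 (-1.33) and Spry4 (-1.45) downwards and Spry1 (1.04) upwards. Libraries of C18_5NC and C18_3NC did not overlap in 7 genes lower in C18_5NC and 1 higher, against 69.3% of all genes. The median of the 10 was -0.52 and that of all genes 0.02. Summed germ cell markers were higher in C18_5NC, at 91.0 to 95.3 RPKM, as were the mesenchymal and Sertoli sums, and leukocyte markers were lower, at 2.25 to 2.65, and their part was not tested.

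Set against C18_5NC, which carries the other vector, C18_5251KD was lower in Dusp5 by a log2 fold change of -0.93 (standard error 0.10), in Dusp4 by -0.80 (0.08), in Dusp6 by -0.51 (0.07), in Spred2 by -0.34 (0.06) and in Spry4 by -0.23 (0.08), which was -0.49 with a pseudocount of 0.1. In these 5 genes the libraries did not overlap, and in Spred3 they did not overlap in the other direction (0.36, standard error 0.07), against 69.4% of all genes tested. Phlda1 was at -0.0033 (0.06), Spry2 at -0.12 (0.09), Spry1 at -0.19 (0.11) and Spred1 at 0.11 (0.07). None of the 10 passed both thresholds, which 1.26% of all genes did upwards and 2.29% downwards. Without C18_5251KD replicate 1, 1 gene passed, Dusp5 with -1.06, as it did with a pseudocount of 0.1 (-1.09). The median of the 10 was -0.21 and that of all genes 0.02. The germ cell, mesenchymal and Sertoli sums were also lower in C18_5251KD than in C18_5NC, and their part was not tested. This comparison is the difference of the preceding pair and adds no libraries.

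**Figure D2:**
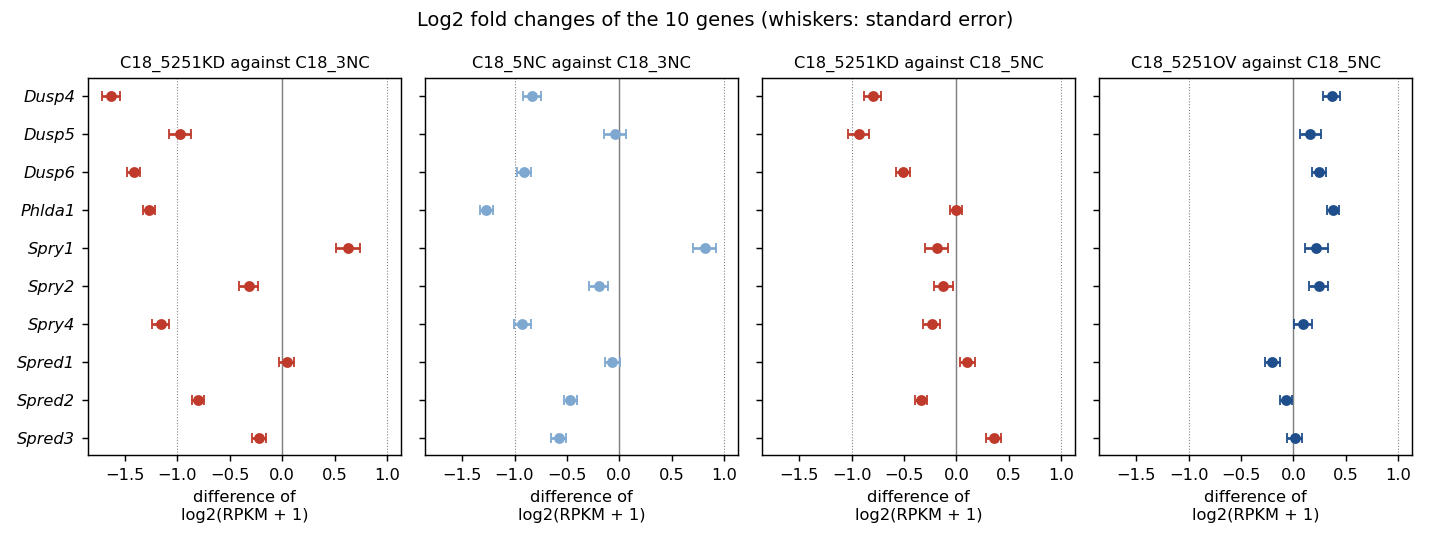
Differences of log2(RPKM + 1) (x axis) of the 10 genes (y axis) in the 4 comparisons, with whiskers of 1 standard error from the limma fit and dotted lines at a log2 fold change of 1 in each direction. Against C18_3NC both C18_5251KD and C18_5NC are lower in Dusp4, Dusp6, Phlda1 and Spry4 and higher in Spry1, and C18_5251OV lies within 0.38 of C18_5NC in every gene.

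Overexpression was compared with the empty vector, C18_5251OV against C18_5NC. The C18_5NC libraries had also been used in choosing the 10 genes, so their differences are described without a test. Dusp4, Phlda1 and Dusp6 had the largest log2 fold changes, all higher in C18_5251OV. Dusp4, at 11.81, 14.51 and 12.73 RPKM in C18_5NC and 15.34, 16.38 and 19.53 in C18_5251OV, had a ratio of means of 1.31 and a log2 fold change of 0.37 (standard error 0.08). Phlda1 had means of 11.8 ± 0.291 and 15.7 ± 1.26 RPKM (SD, n = 3), a ratio of 1.33, and a log2 fold change of 0.38 (standard error 0.06). Dusp6 had means of 8.72 ± 0.133 and 10.5 ± 0.528 RPKM (SD, n = 3), a ratio of 1.21, and a log2 fold change of 0.25 (standard error 0.07). In each of these 3 genes all 3 libraries of C18_5251OV lay above all 3 of C18_5NC. The summed mesenchymal, Sertoli and germ cell markers were also higher in C18_5251OV in all 3 libraries. In the mesenchymal sum Vim (means of 610 against 537 RPKM) and Col1a1 (423 against 381) were higher, whereas Col3a1, Dcn and Acta2 were lower, as given beside Spry1. In the Sertoli sum Kitl was lower, also given there. The germ cell sum was at 107.3 to 124.9 against 91.0 to 95.3 RPKM, nearly all of it Uchl1, and the part of these markers in these values was not tested.

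Of the other 7 genes, Spry2 was also separate, with all libraries of C18_5251OV above those of C18_5NC (log2 fold change 0.24, standard error 0.09). Spred1 had a log2 fold change of -0.20 (0.07). The log2 fold change was 0.22 (0.11) for Spry1, 0.16 (0.10) for Dusp5, 0.09 (0.08) for Spry4, 0.01 (0.07) for Spred3 and -0.07 (0.06) for Spred2.

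Non-overlapping libraries were found in 4 of the 10, all higher, and in 36.7% of all genes. The median log2 fold change of the 10 was 0.19, that of all genes -0.03. Under the study's stricter thresholds 0 of the 10 and 0% of all genes passed. Of all 11435 genes tested, 8.07% were higher and 13.9% lower with an adjusted p up to 0.05 (limma). This count moved much with single libraries of C18_5251OV, from 923 higher and 1595 lower to 1673 and 2510 without replicate 3, 392 and 589 without replicate 2 and 399 and 628 without replicate 1. Leaving out libraries of C18_5NC gave 629 higher and 1009 lower without replicate 1, 491 and 806 without replicate 3 and 435 and 628 without replicate 2. The means of Dusp4, Dusp6 and Phlda1 in C18_5251OV stayed below those in C18_3NC, which were 23.95, 17.2 and 29.9 RPKM against 17.1, 10.5 and 15.7.

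The rest of the pathway was read from 4 lists. The components of the relay, from adaptors to the kinases below ERK, numbered 27, and all 27 were tested. Against C18_3NC, 0 of them passed the strict thresholds in C18_5251KD in either direction, against 1.08% of all genes tested downwards and 0.498% upwards. Their median log2 fold change was 0.09, with 15 of the 27 higher and values from -0.42 to 0.64. Changes below the fold threshold thus went both ways. The counts given for C18_5251OV in this and the other lists rest on an adjusted p up to 0.05 without a fold threshold. They cannot be set beside the strict counts. Between the controls, 1 of 27 passed, against 1.05% of all genes tested downwards and 1.56% upwards. Mras, a RAS relative that takes part in RAF activation, was higher in C18_5NC, at 24.9 ± 0.576 RPKM against 10.2 ± 0.268 in C18_3NC (SD, n = 3, log2 fold change 1.20, limma, adjusted p = 7.72e-11). Against C18_5NC, Rps6ka2, which encodes a kinase phosphorylated by ERK, was lower in C18_5251KD, at 1.58 RPKM against 5.50 (log2 fold change -1.34, adjusted p = 2.31e-09, limma). In C18_5251OV against C18_5NC, 3 were lower with an adjusted p up to 0.05, Sos1, Rps6ka3 and Sos2, and 1 was higher, Shc1 (log2 fold change 0.18, named after its value was seen), whereas 13.9% of all genes tested were lower and 8.07% higher. In the lower genes replicate 3 of C18_5251OV stood near C18_5NC. Sos1 measured 6.97, 8.06 and 9.60 RPKM in C18_5251OV and 10.30, 11.52 and 10.96 in C18_5NC (log2 fold change -0.38, limma, adjusted p = 0.00743), and it remained past 0.05 with any of these 6 libraries left out. Rps6ka3 measured 13.53, 14.25 and 18.18 against 18.70, 20.43 and 19.63 RPKM (-0.35, adjusted p = 0.0180). Sos2 measured 6.11, 6.05 and 7.73 against 8.02, 8.85 and 8.26 RPKM (-0.30, adjusted p = 0.0150). Neither Rps6ka3 nor Sos2 passed without C18_5251OV replicate 1, C18_5251OV replicate 2 or C18_5NC replicate 2, nor Rps6ka3 without C18_5NC replicate 3, with an adjusted p of limma between 0.0537 and 0.0891. Shc1 passed only without C18_5NC replicate 2 or without C18_5251OV replicate 3. Without C18_5251OV replicate 3, 11 of the 27 were lower and 1 higher. Sos1 and Sos2 encode the exchange factors that load RAS, and the median of the 27 was -0.06.

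Of 21 other DUSP genes listed, 20 were in the table and 14 were tested. None of the 14 passed the strict thresholds in any of the 3 comparisons among C18_3NC, C18_5NC and C18_5251KD. Between 0.498% and 2.29% of all genes tested did so in each direction. Medians of the 14 were 0.00 for C18_5251KD against C18_3NC, 0.01 for C18_5NC against C18_3NC and -0.09 for C18_5251KD against C18_5NC. In C18_5251KD against C18_3NC 8 of the 14 were higher, with log2 fold changes from -0.43 to 0.40, so smaller changes went both ways. In C18_5251OV against C18_5NC, 5 of the 14 were higher and 1 lower with an adjusted p up to 0.05, against 8.07% and 13.9% of all genes tested, with a median of 0.08 against -0.03 over all genes. The count was 3 higher and 0 lower without C18_5251OV replicate 1, without C18_5251OV replicate 2 or without C18_5NC replicate 2. The lower gene, Dusp11 (log2 fold change -0.16, named after its value was seen), passed without C18_5251OV replicate 3 and with none of the other 5 libraries left out. Dusp1, a nuclear phosphatase of several MAP kinases that is induced by stress and serum, had the largest change, from 19.3 ± 1.47 to 27.8 ± 0.469 RPKM (SD, n = 3, log2 fold change 0.51, limma, adjusted p = 0.000158). Dusp8 (0.38, adjusted p = 0.00411) and Dusp9 (0.30, adjusted p = 0.0223) followed. The list was made with earlier results known, so these p-values do not stand as independent tests. Mean levels of Dusp1 and Dusp9 were lower in C18_5NC than in C18_3NC, at 19.3 against 23.0 and 2.88 against 3.49 RPKM. That of Dusp8 was higher, at 4.97 against 4.33. Whether a low C18_5NC baseline drew Dusp1 and Dusp9 towards higher values in C18_5251OV was not tested. Dusp1 and Dusp8 passed with any of the 6 libraries left out. Dusp9 did not pass without C18_5NC replicate 1 or 2 or without C18_5251OV replicate 1 or 2, with an adjusted p of limma between 0.0542 and 0.104.

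The list of other negative regulators of RAS and ERK signalling held 23 genes, of which 19 were tested. In C18_5251KD 0 of 19 passed the strict thresholds against C18_3NC, while 1.08% of all genes tested passed downwards and 0.498% upwards. The median log2 fold change of the 19 was 0.00, with 10 of the 19 higher and values from -0.59 to 0.34. Between the controls 2 were lower in C18_5NC than in C18_3NC and 0 higher under the strict thresholds, against 1.05% and 1.56% of all genes tested. Lrig1, a membrane protein that restrains receptor tyrosine kinases, was at 13.0 against 27.6 RPKM (log2 fold change -1.03, limma, adjusted p = 2.71e-10), and Rasa4, a RAS GTPase activating protein, at 1.80 against 4.91 (-1.08, adjusted p = 3.74e-08). Rasa4 was at 4.92 RPKM in C18_5251KD and thus passed upwards against C18_5NC (log2 fold change 1.08, limma, adjusted p = 2.77e-08). In C18_5251OV against C18_5NC, 3 of the 19 were higher and 3 lower with an adjusted p up to 0.05, against 8.07% and 13.9% of all genes tested. The 3 with the largest changes were Cbl, a ubiquitin ligase of activated receptors, Dok1, an adaptor that recruits RAS inhibitors (log2 fold change 0.32, adjusted p = 0.0169), and Rasa1, a RAS GTPase activating protein (-0.30, adjusted p = 0.0189). Cbl measured 3.38, 4.49 and 6.85 RPKM in C18_5251OV and 6.85, 7.92 and 8.29 in C18_5NC (log2 fold change -0.59, limma, adjusted p = 0.0118), so that replicate 3 of C18_5251OV equalled the lowest library of C18_5NC. It did not pass without C18_5251OV replicate 2 (adjusted p = 0.0508, limma). Neither Dok1 nor Rasa1 passed without C18_5NC replicate 2 or without C18_5251OV replicate 1 or 2, nor Rasa1 without C18_5NC replicate 3, with an adjusted p of limma between 0.0506 and 0.0921. Without C18_5251OV replicate 3, 4 of the 19 were higher and 5 lower, and without C18_5251OV replicate 2, 0 in either direction. Without C18_5251OV replicate 1 or C18_5NC replicate 3, 1 was higher and 1 lower, and without C18_5NC replicate 2, 0 were higher and 1 lower.

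Transcripts known to depend on ERK, other than the 10 genes, were listed as 12 genes of which 9 were tested. Their differences from C18_3NC were known beforehand and are described without a p-value. In C18_5251KD 5 of 9 were past both thresholds downwards and 0 upwards, against 1.08% and 0.498% of all genes tested. Fosl1, an AP-1 subunit, was at 0.983 ± 0.409 RPKM against 31.0 ± 1.10 in C18_3NC (SD, n = 3), Etv4 and Etv5, ETS factors induced by FGF, had log2 fold changes of -1.62 and -1.40, Ier3 of -1.54 and Egr1 of -1.19. In C18_5NC 4 of 9 were past both, Fosl1 (-3.56), Etv4 (-2.82), Etv5 (-1.11) and Egr1 (-1.09). Of all genes tested, 1.05% passed downwards and 1.56% upwards there. Against C18_5NC 1 of 9 was past both thresholds in C18_5251KD, and upwards, namely Etv4 with 9.55 ± 1.30 against 3.59 ± 0.169 RPKM (SD, n = 3). Of all genes tested, 1.26% passed upwards and 2.29% downwards in that comparison.

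In C18_5251OV against C18_5NC, 7 of the 9 ERK-dependent transcripts had a positive log2 fold change, with a median of 0.24 against -0.03 over all genes. Their low values in C18_5NC were known beforehand too, so no call is made and nothing is read from this count. Fosl1 measured 3.44, 3.77 and 2.70 RPKM in C18_5251OV and 1.61, 1.98 and 1.58 in C18_5NC (log2 fold change 0.66, standard error 0.12). Etv4 had means of 5.83 and 3.59 RPKM (0.57, standard error 0.09). Egr1, an early response gene that serum response factor controls, had means of 15.6 and 21.4 RPKM (-0.43, standard error 0.05). The direction of Egr1 was thus opposite to that of Fosl1, Etv4, Dusp4, Dusp6 and Phlda1.

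**Figure D3:**
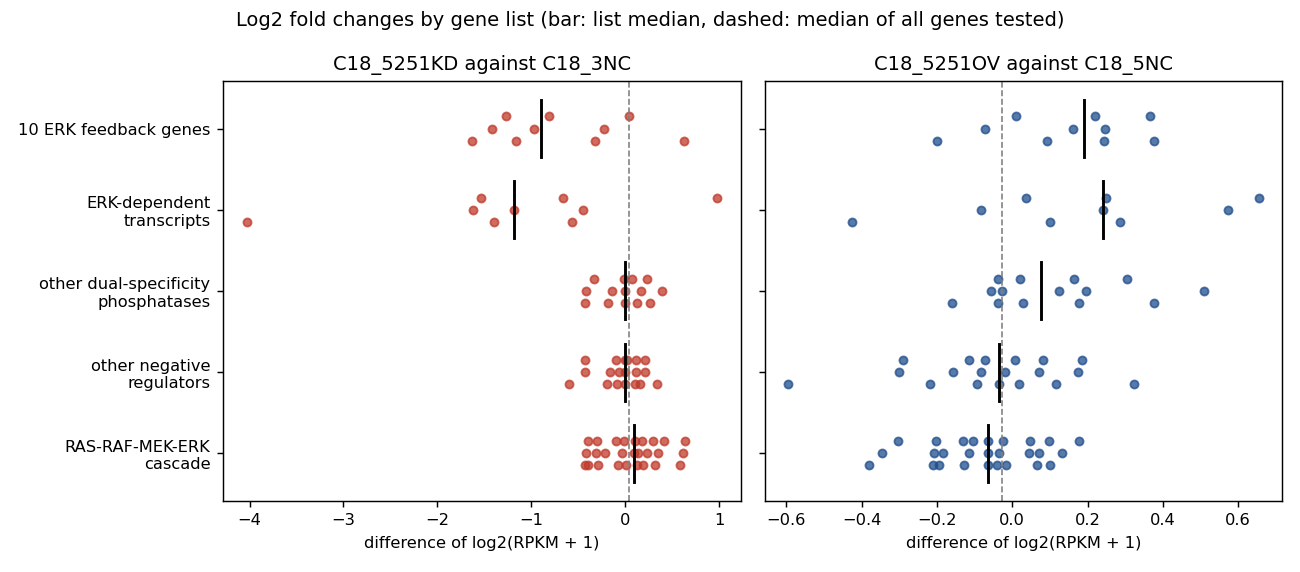
Differences of log2(RPKM + 1) (x axes, with different ranges) in C18_5251KD against C18_3NC and in C18_5251OV against C18_5NC for the 10 genes and the 4 pathway lists (y axis), with a point for each gene tested, spread vertically only for legibility, a bar at the list's median and a dashed line at the median of all 11435 genes. In C18_5251KD the medians are -0.89 for the 10 genes and -1.19 for ERK-dependent transcripts and lie between 0.00 and 0.09 for the other lists.

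The genes whose pattern over the 12 libraries was most like that of a feedback gene were sought for the 6 members whose group means spanned at least 1 on the log2 scale, by the Pearson correlation of log2(RPKM + 1) over 8889 genes with a mean of at least 5 RPKM. Dusp4 was most like Sf3b3 (r = 0.980), Ftsj3 (0.980) and Polr1e (0.973), and Dusp6 was most like Dph5 (0.989), Kansl2 (0.987) and Hsph1 (0.986). For Dusp5 the nearest were Pdcd11 (0.981), Usp36 (0.979) and Tut1 (0.976), and for Phlda1 they were Cd84 (0.991), Gm46911 (0.985) and Fosl1 (0.984). Spry4 was nearest to Gm42102 (0.989), Gm6958 (0.988) and Lrrc8d (0.986), and Spry1 to Stim2 (0.966), Fgf18 (0.961) and Adgrg1 (0.952). Fgf18, which encodes a growth factor that activates this pathway, had group means of 2.58 RPKM in C18_3NC, 6.20 in C18_5251KD, 9.57 in C18_5NC and 13.3 in C18_5251OV. The points again fall into 4 groups that share each library's scaling, and no p-value is given.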

How the data were processed

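Poly(A) RNA of 12 C18-4 libraries was sequenced by the authors on an Illumina instrument. Per the supplementary methods, reads were mapped to reference genes with SOAPaligner, and the authors deposited RPKM for 17576 genes. The genome build is not given in the sources used here. Strand was not stated. Each library was placed in its group by its label. For C18-4 the study's data statement points to a different series, and the sample labels were followed.

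Values were used as log2(RPKM + 1). A gene was tested if 3 libraries or more reached 1 RPKM, and the 11435 such genes were fitted in 1 model over the 12 libraries with limma 3.58.1 in R 4.3.3 (eBayes with an intensity trend, Benjamini-Hochberg adjustment over all genes tested). The authors' count test was not run because it needs read numbers. The fit was tested on simulated data. An exact permutation test of 3 against 3 libraries cannot give a two-sided p below 0.1.

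The 10 genes and all lists were chosen with earlier results of these data known. For the 10 genes and the ERK-dependent transcripts, whose kind of values led to the choice, no p-value is given, although a test of C18_5251OV against C18_5NC had been planned. P-values are printed for genes of the other 3 lists. These lists were made with the results known too, so their p-values do not stand as independent tests. Some of their genes, such as Dusp1, also had a lower mean in C18_5NC than in C18_3NC. A pull of such genes towards higher values in C18_5251OV was not tested. Named were the 10 genes, up to 5 genes of each pathway list past the strict thresholds, up to 3 of each list in C18_5251OV against C18_5NC, and the 3 genes most like a member. Positions are from GENCODE on GRCm38. Alternatives were a pseudocount of 0.1, no filter, quantile normalization, the 6 libraries compared, a replicate block and each library left out. Plots come from Python 3.11.15 with matplotlib 3.10.9.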

Additional observations from a re-analysis of the deposited data

How the results depend on the processing

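No value of the 10 genes that was past a threshold changed its sign under any alternative run. With a pseudocount of 0.1, the number of the 10 genes past the strict thresholds went from 1 to 3 in C18_5NC against C18_3NC and from 0 to 1 in C18_5251KD against C18_5NC. Leaving out each library in turn gave 0 to 1 in C18_5251KD against C18_5NC, with 1 without C18_5251KD replicate 1. In C18_5251OV against C18_5NC the log2 fold change ranged over all alternatives from 0.27 to 0.44 for Dusp4, from 0.21 to 0.31 for Dusp6, from 0.32 to 0.43 for Phlda1, from 0.19 to 0.33 for Spry2 and from -0.28 to -0.15 for Spred1. It ranged from 0.12 to 0.33 for Spry1, from 0.11 to 0.23 for Dusp5, from 0.03 to 0.18 for Spry4 and from -0.13 to -0.03 for Spred2, and changed sign for Spred3, from -0.03 to 0.12. In C18_5251KD against C18_3NC the number was 5 in place of 4 with a pseudocount of 0.1, after quantile normalization and without C18_5251KD replicate 1, the fifth gene being Dusp5. Leaving out libraries for the 4 pathway lists was chosen after seeing the data, and in C18_5251OV against C18_5NC it gave 10 to 33 genes past an adjusted p of 0.05 (limma) in place of 22. Of these, 6 were ERK-dependent transcripts under each setting, from which nothing is read because of how they were chosen. The other 3 lists gave 4 to 27 in place of 16, the fewest without C18_5251OV replicate 2 and the most without C18_5251OV replicate 3, while the share over all genes went from 8.58% to 36.6%. The cause of these shifts was not tested. Spry4 was not tested in the fit to the 6 libraries of C18_5251OV and C18_5NC, where it did not reach the filter.

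Libraries with the same replicate number did not deviate together from their group means (Pearson correlations from -0.178 to 0.176), so the numbers were not taken as pairs. With a replicate block, 4 of the 10 genes were past the strict thresholds in C18_5251KD against C18_3NC, 1 in C18_5NC against C18_3NC and 0 in C18_5251KD against C18_5NC, the same numbers as without it. In C18_5251OV against C18_5NC, where the 10 genes are described without a test, the block left the log2 fold change of Dusp4 at 0.37 (standard error 0.08). RPKM holds no read numbers, so the precision of low genes such as Spry4 is known only from the spread of 3 libraries.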
